A study of Homo sapiens with 11 samples.

Results

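Interferon-stimulated genes (ISGs) were examined in RNA sequencing data of MOLM-13, an established line of human acute myeloid leukemia cells that carry a KMT2A rearrangement. The 46 members were chosen by gene symbol among the 38557 genes of the count table, and all 46 symbols were found in it. Cells had been held for 72 h in the solvent DMSO (4 libraries), in 1 µM MI-503, an inhibitor of the KMT2A partner protein Menin (4 libraries, the MI-503 group), or in both 1 µM MI-503 and 100 nM PR-957, which blocks PSMB8, a catalytic part of the immunoproteasome (3 libraries numbered 1, 2 and 4, the combination group). PR-957 was never given by itself, so its effect could be read only in cells that also had MI-503, and all values come from 1 cell line. Nothing in the labels says that the replicates were separate cultures, so the p-values measure only the spread between these libraries, which may be technical.

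Interferons are secreted proteins that bind cell surface receptors and activate the kinases JAK1, JAK2 and TYK2. Type I and type III interferons lead to a complex with STAT2 and IRF9 that binds the interferon-stimulated response element (ISRE), whereas interferon gamma acts through the gamma-activated site (GAS). The genes switched on in this way encode RNA sensors, nucleases, membrane proteins and ubiquitin-like modifiers that limit viruses, and some of them are also expressed in myeloid cells without added interferon. The immunoproteasome, which PR-957 targets, itself carries interferon-inducible catalytic subunits in place of the standard ones.

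The regulatory sequences of the members are shown first, because the ISRE is the element that the ISGs are known for. RefSeq windows of GRCh38.p14, from 250 bases before to 50 bases after a transcript start, were found for 37 of the 46 members (50 windows). An ISRE core, searched on both strands as GAAA, any 2 bases and GAAA, was present for 25 of these 37 members (67.6%), against 4.38% of 27305 genes and 3.57% of 35116 windows. A GAS, searched as TTC, any 3 bases and GAA, which reads alike on both strands, was present for 12 of 37 members (32.4%), against 9.38% of all genes. A further core of IFIT5 spans the transcript start, where the stretch shown for it ends, and is not in capitals. The stretches below were chosen to set members that differed in their response beside each other, with each ISRE core that lies wholly within the stretch (or, for IRF1, the GAS) in capitals and the gene's strand read 5′ to 3′. ISG15 (chr1:1013364-1013419, plus strand) was called in no comparison, IFIT1 (chr10:89392487-89392549, plus) was lower after MI-503, and IFIT3 (chr10:89327821-89327904, plus), IFIT5 (chr10:89414503-89414567, plus) and IFI44 (chr1:78649761-78649790, plus) were higher when PR-957 was added. IFITM3 (chr11:320866-320932, minus) and LGALS3BP (chr17:78979952-78980001, minus) were lower when PR-957 was added, BST2 (chr19:17405725-17405780, minus) was higher after MI-503, and IRF1 (chr5:132490869-132490917, minus) was slightly lower after MI-503.
ISG15: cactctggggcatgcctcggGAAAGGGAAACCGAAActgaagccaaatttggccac
IFIT1: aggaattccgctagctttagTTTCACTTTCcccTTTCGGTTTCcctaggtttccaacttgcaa
IFIT3: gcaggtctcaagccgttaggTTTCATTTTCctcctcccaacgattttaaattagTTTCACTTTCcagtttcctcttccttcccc
IFIT5: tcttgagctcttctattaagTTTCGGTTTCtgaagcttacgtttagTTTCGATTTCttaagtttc
IFI44: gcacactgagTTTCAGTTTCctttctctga
IFITM3: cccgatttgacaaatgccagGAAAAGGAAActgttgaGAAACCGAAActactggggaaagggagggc
LGALS3BP: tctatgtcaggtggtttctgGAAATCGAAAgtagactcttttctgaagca
BST2: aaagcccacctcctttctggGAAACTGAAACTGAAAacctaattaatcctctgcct
IRF1: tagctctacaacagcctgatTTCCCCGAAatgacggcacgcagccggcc

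In ISG15 and BST2 the ISRE cores overlap, whereas IFIT1, IFIT3, IFIT5 and IFITM3 carry separate copies. The IFI44 stretch lies within an annotated exon of another IFI44 transcript. The core was found before members of each response: in the combination against MI-503 it was in the window of 6 of the 9 matched members called higher, of 5 of the 5 called lower and of 10 of the 18 not called. OAS1, STAT2 and SAMD9L, which rose with the combination, had no such letters in their windows.

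Counted fragments ranged from 18.9 to 41.2 M per library, and levels are given as CPM, the fragments of a gene per M counted fragments, scaled by TMM, a method that aligns libraries on the bulk of their genes. The cells expressed the 8 myeloid identity markers, with summed levels of 1582 to 1664 CPM in DMSO, 2101 to 2262 in MI-503 and 2268 to 4702 in the combination, and the summed level of the 8 monocytic differentiation markers was 55.9 to 61.1, 129 to 145 and 151 to 175 CPM. The markers did not move alike. ITGAM was at 22.9, 55.2 and 68.5 CPM on average and CSF1R at 6.48, 34.8 and 55.5. FCGR1A was at 28.5, 36.3 and 25.1 CPM, and CD14 at 0.251, 0.184 and 0.227. In the myeloid list FLT3 was at 324, 230 and 193 CPM and MPO at 114, 216 and 130. LYZ, the lysozyme gene of the myeloid list, was at 95.2 and 375 CPM and, in the combination, at 1640 ± 967 CPM (SD, n = 3). The part of these markers in the results below was not tested. Of markers of other cells, T-cell genes summed to at most 0.184 CPM, erythroid genes to at most 0.237 CPM, and fibroblast genes to at most 1.06 CPM. The 4 endothelial markers summed to 46.4 to 55.7 CPM in DMSO, 106 to 112 in MI-503 and 125 to 183 in the combination, with CDH5 at 0 throughout and PECAM1 making up most of each sum (50, 109 and 161 CPM on average), and the 4 B-cell markers to 48.8 to 51.4, 33.5 to 34.2 and 24.1 to 27.7 CPM, most of it PAX5 (46.6, 30.5 and 23.7 CPM on average). Epithelial markers summed to 37.7 to 44.9, 34.5 to 37.2 and 24.5 to 35.2 CPM. Most of it was KRT18 (32.9, 25.6 and 22.5 CPM on average) and KRT8 (7.21, 10.1 and 7.42). IL3RA and LILRA4, which mark plasmacytoid dendritic cells, the main interferon producers in blood, and MS4A1, which marks B cells, were at 0 in every library. Fragments that mapped to several places were not counted, and marker genes were not searched for recurring sequence, so these zeros cannot be read as absence. The plasmacytoid list of 4 genes summed to 5.23 to 7.35, 4.75 to 6.79 and 3.66 to 5.26 CPM. Most of this sum was TCF4 (6.46, 5.79 and 4.50 CPM on average). Combination replicate 1 stood apart from its group: among 10039 genes at 5 CPM or more on average, 37 were over 2-fold away from the mean of the group's remaining libraries there, whereas replicates 2 and 4 had 2 and 12 such genes and no DMSO or MI-503 library had over 1. Calls that were lost or gained without it are given beside the genes concerned.

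No interferon transcripts were counted beyond single fragments. Of 21 interferon genes in the table, 15 had no count in any library, and the other 6 had 7 fragments in all among 287 M. A count of 0 allows a level of up to 0.0729 CPM in the deepest library and 0.159 CPM in the shallowest, counting error only. Interferon genes were not searched for recurring sequence, so fragments that mapped to several of them may have gone uncounted. The labels name no added interferon. Of the 46 ISGs, 3 (IFI27, GBP1 and IRF9) had no count in any library. For 2 of these the zero cannot be read as absence. IFI27 is annotated a second time on an alternative contig of hg38, on which 100% of its 100-base exon windows recur, and IRF9 is annotated a second time on a patch contig with the same exon lengths, while fragments that mapped to several places were not counted. GBP1, a GTPase, had no such copy. IFI44L had 0 to 3 fragments per library, EPSTI1 0 to 4 and OASL 3 to 19, too few to be tested, which left 40 members.

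Levels among the members spanned a wide range. Per kilobase of exon, IFITM2 was the highest in DMSO with 68.8 ± 2.5 CPM per kb (SD, n = 4), followed by BST2 with 65.8 ± 6.6, which overlapped it, then by TRIM25 with 31.4 ± 0.53 and ADAR with 22.5 ± 0.56. The value of ADAR may be too low, because 24.8% of its exon bases are shared with CHRNB2 and fragments there were not counted. IFITM3 with 12.8 ± 1.8 and ISG15 with 12.4 ± 0.25 CPM per kb did not differ beyond their spread. At the other end IFI44 had 0.102 ± 0.012 and IFIT1 0.189 ± 0.051 CPM per kb. The summed level of the 46 members was 1054 to 1083 CPM in DMSO, 1171 to 1189 in MI-503 and 1298 to 1318 in the combination. ADAR and TRIM25 made up 240 and 180 CPM of this sum in DMSO. In bulk RNA, more cells expressing a gene and more RNA per cell cannot be told apart.

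The ISGs did not move as 1 block under either treatment. In MI-503 against DMSO, which asks how the ISGs respond to Menin inhibition, 12 of the 40 tested members were called higher and 8 lower, where a call is an edgeR adjusted p under 0.05 over all 14683 tested genes. Among all tested genes 21.9% were called higher and 29.4% lower. The median log2 fold change was −0.01 for the members and −0.03 for all genes, and the median size was 0.37 and 0.24. With upper-quartile scaling 14 members were higher and 7 lower, and higher genes made up 54.1% of all calls in place of 42.8%. That share was 47.6% with RLE scaling, 47.3% with DESeq2, 50.5% with a stricter filter and 50.6% with only the 2 groups in the fit. It was 50.9%, 49.6% and 49.4% without combination replicate 1, 2 or 4, but 42.5% with limma-voom and 43.2% with a replicate block. In the combination against DMSO 17 members were called higher and 9 lower, against 31.6% and 32.8% of all genes, with a median of 0.05 for the members and 0.01 for all genes. In the combination against MI-503, which asks what PR-957 adds, 12 members were called higher and 6 lower, against 23.5% and 23.7% of all genes, with a median of 0.06 for the members and 0.00 for all genes. Without combination replicate 1 these last counts were 11 and 8 (21.8% and 27.5% of all genes), and those against DMSO 18 and 8 (31.8% and 31.6%). Each pair of comparisons shares a group of libraries, so the comparisons are not independent of each other, and the gene values below are set side by side.

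**Figure D1:**
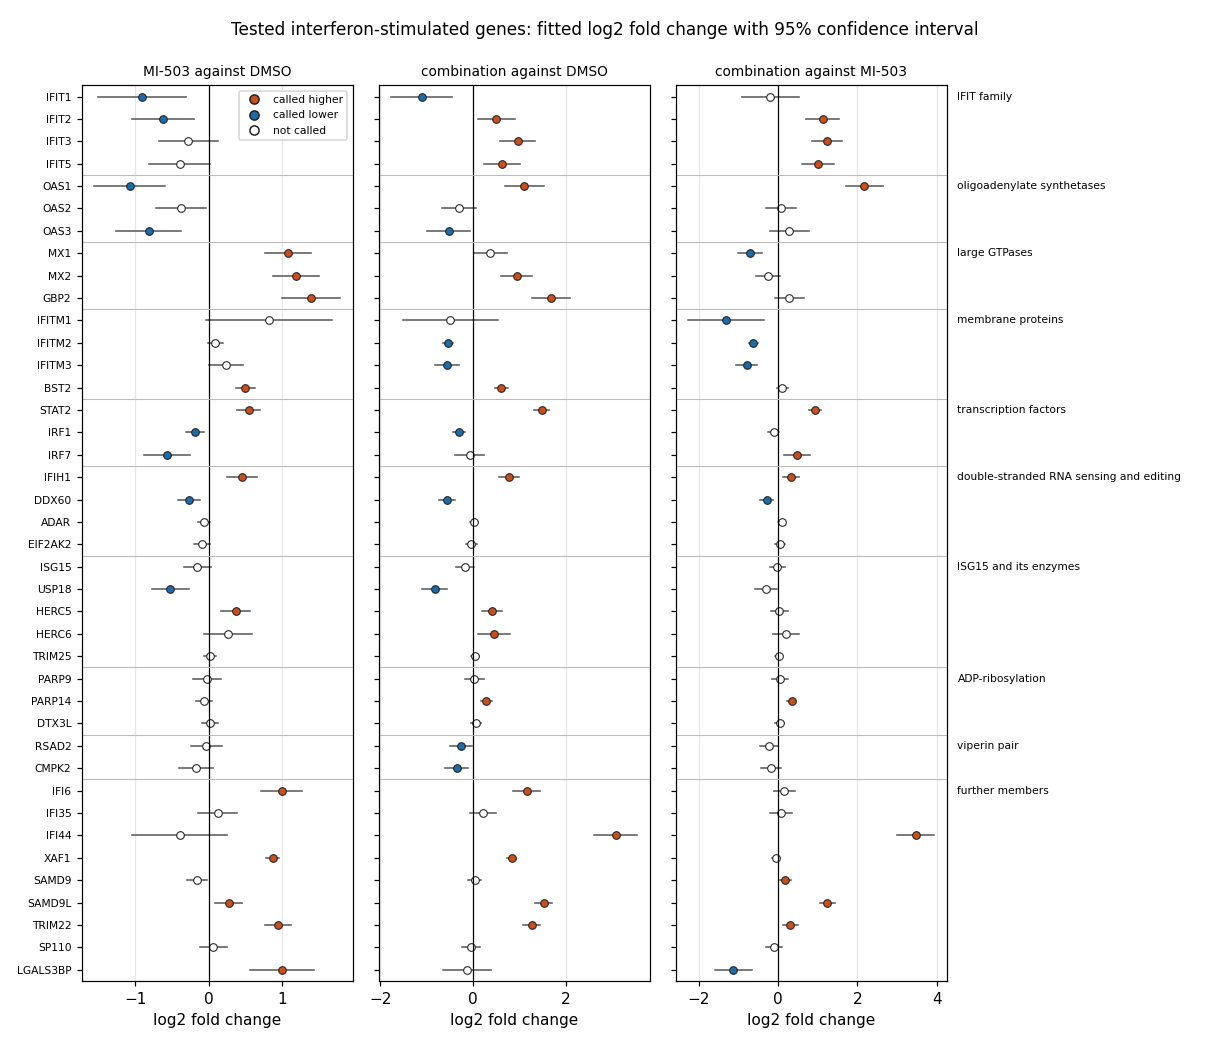
Fitted log2 fold change (x axis) of each of the 40 tested ISGs (y axis, by role) in the 3 comparisons, with 95% confidence intervals as lines; orange points are called higher, blue points lower and open points not called at an edgeR adjusted p under 0.05. Members of 1 role point in different directions, and IFI44 lies farthest to the right in both comparisons of the combination (3.07 and 3.47).

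IFI44 showed the largest response. This gene (chromosome 1, 78648943 to 78664078, plus strand, hg38) encodes a cytoplasmic protein induced by interferon. Its levels were 0.540, 0.551, 0.664 and 0.664 CPM in DMSO, 0.324, 0.639, 0.578 and 0.205 in MI-503 and 5.76, 4.51 and 4.80 in the combination. All combination libraries lay far above all others, whereas DMSO and MI-503 overlapped. The combination was 11.1-fold higher than MI-503 (log2 fold change 3.47, SE 0.23, edgeR adjusted p = 5.89e-10) and 8.40-fold higher than DMSO (3.07, SE 0.22, edgeR adjusted p = 5.58e-10). MI-503 against DMSO gave −0.40 with a 95% interval of −1.04 to 0.24 and was not called. DMSO and MI-503 libraries held 5 to 22 fragments of IFI44, and combination libraries 90 to 244.

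Among the IFIT genes, whose proteins bind foreign RNA ends or support those that do, IFIT2, IFIT3 and IFIT5 were higher when PR-957 was added, and IFIT1 was not. IFIT2 (chromosome 10, 89302046 to 89309271) was at 1.38, 1.38, 1.52 and 1.61 CPM in DMSO, 0.833, 0.842, 1.03 and 1.10 in MI-503 and 1.65, 2.51 and 2.23 in the combination. It was called lower after MI-503 (log2 fold change −0.63, SE 0.20, edgeR adjusted p = 0.0135) and higher in the combination than in MI-503 (1.13, SE 0.20, edgeR adjusted p = 0.000127). The rise over DMSO (0.50, edgeR adjusted p = 0.0274) was lost on leaving out single libraries, with adjusted p of 0.0647 and 0.0549 without DMSO replicates 1 and 2 and 0.121 and 0.0854 without combination replicates 2 and 4. The groups of IFIT2 did not overlap. IFIT3 (chromosome 10, 89327997 to 89340968) was at 1.59, 1.29, 1.61 and 1.75 CPM in DMSO, 1.02, 1.37, 1.28 and 1.43 in MI-503 and 2.45, 3.21 and 3.57 in the combination. For IFIT3 the combination libraries stood above all others (1.24 over MI-503, SE 0.18, edgeR adjusted p = 1.84e-05), and DMSO and MI-503 overlapped (−0.28, not called). IFIT5 rose in the combination by 1.02 over MI-503 (SE 0.19, edgeR adjusted p = 0.000253). After MI-503 it gave −0.40 (edgeR adjusted p = 0.101), or −0.55 with 0.0311 without MI-503 replicate 4. IFIT1 (chromosome 10, 89392546 to 89406487), the member of this family that recognises the RNA cap, was at 0.810, 0.964, 1.19 and 0.617 CPM in DMSO, 0.509, 0.319, 0.495 and 0.614 in MI-503 and 0.448, 0.251 and 0.483 in the combination. It was lower than DMSO in both groups, by −0.91 (SE 0.29, edgeR adjusted p = 0.0128) and −1.11 (SE 0.31, edgeR adjusted p = 0.00454). Leaving out DMSO replicate 3 (0.0506) or MI-503 replicate 2 (0.0624) ended the first call, and the combination against MI-503 gave −0.20 with a 95% interval of −0.92 to 0.52.

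Oligoadenylate synthetases make the second messenger that activates RNase L, and their genes lie side by side on chromosome 12. OAS1 (112906777 to 112933219) was at 3.54, 3.63, 3.98 and 4.93 CPM in DMSO, 1.80, 1.77, 1.90 and 2.13 in MI-503 and 5.40, 10.8 and 10.2 in the combination. The groups did not overlap: OAS1 fell after MI-503 (log2 fold change −1.08, SE 0.23, edgeR adjusted p = 0.000862) and was 4.53-fold higher in the combination than in MI-503 (2.18, SE 0.22, edgeR adjusted p = 8.66e-07). The combination also exceeded DMSO (1.10, SE 0.20, edgeR adjusted p = 0.000163), with replicate 1 the closest to it. OAS3 (112938463 to 112973251) was at 4.52, 3.40, 5.69 and 4.98 CPM in DMSO, 1.85, 2.35, 3.38 and 2.95 in MI-503 and 2.45, 2.91 and 4.39 in the combination. OAS3 was lower after MI-503 (−0.82, SE 0.21, edgeR adjusted p = 0.00372) and was not called between the combination and MI-503 (0.29, 95% interval −0.20 to 0.77). Its lower level in the combination than in DMSO (−0.53, edgeR adjusted p = 0.0441) was not stable: it was −0.30 with an adjusted p of 0.230 without combination replicate 1 and −0.82 with 0.00251 without replicate 4, and leaving out DMSO replicate 1 (0.0720), 3 (0.128) or 4 (0.0918), replicate 2 (0.0548) or 4 (0.0553) of MI-503, or replicate 2 of the combination (0.122) ended the call as well. OAS2 was called in no comparison, with values of −0.37, −0.30 and 0.08. Without MI-503 replicate 2 it was called lower after MI-503 (−0.49, edgeR adjusted p = 0.0302).

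Large GTPases, which assemble on viral or vacuolar targets, were all 3 higher after MI-503. GBP2 (chromosome 1, 89106132 to 89126114, minus strand) was at 3.44, 4.64, 3.60 and 3.08 CPM in DMSO, 10.0, 10.5, 9.04 and 8.96 in MI-503 and 15.7, 10.7 and 8.40 in the combination. This was the largest rise of a member after MI-503 (log2 fold change 1.39, SE 0.18, edgeR adjusted p = 2.01e-05), while the combination spread widely around the MI-503 libraries (0.29 over MI-503, edgeR adjusted p = 0.188). On leaving out single libraries the last value ran from −0.06 with 0.712 without combination replicate 1 to 0.44 with 0.0127 without combination replicate 4. Of the GBP2 exon bases, 10.9% are shared with another annotated gene, and fragments there were not counted. MX1 (chromosome 21, 41420329 to 41459214) was at 1.59, 1.97, 1.33 and 1.47 CPM in DMSO, 3.24, 3.11, 3.59 and 3.56 in MI-503 and 2.05, 1.95 and 2.16 in the combination. MX1 thus rose after MI-503 (1.08, SE 0.15, edgeR adjusted p = 6.47e-06) and was lower again in the combination (−0.71 against MI-503, SE 0.15, edgeR adjusted p = 0.00074). The combination against DMSO gave 0.37 (edgeR adjusted p = 0.0576), and 0.48 with 0.0193 without DMSO replicate 2. Its neighbor MX2 (41361944 to 41409393) was at 2.26, 3.31, 2.61 and 2.37 CPM in DMSO, 5.13, 6.22, 6.64 and 5.77 in MI-503 and 5.31, 3.86 and 5.69 in the combination. MX2 was higher in both groups than in DMSO (1.18, SE 0.15, and 0.94, SE 0.16, with edgeR adjusted p of 2.1e-06 and 3.74e-05) and was not called between them (−0.25, 95% interval −0.55 to 0.05).

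The IFITM genes, whose membrane proteins block virus entry, went the other way when PR-957 was added. IFITM2 (chromosome 11, 308107 to 309410) was at 51.4, 50.9, 51.0 and 47.5 CPM in DMSO, 54.4, 53.6, 55.4 and 50.5 in MI-503 and 35.6, 32.7 and 35.3 in the combination. IFITM3 (chromosome 11, 319676 to 320860, minus strand) was at 7.49, 9.37, 7.58 and 6.83 CPM in DMSO, 8.42, 9.06, 9.45 and 9.86 in MI-503 and 6.11, 4.76 and 4.80 in the combination. Every combination library of these genes lay below every other library. The combination was lower than MI-503 by −0.63 for IFITM2 (SE 0.053, edgeR adjusted p = 2.14e-08) and by −0.79 for IFITM3 (SE 0.12, edgeR adjusted p = 2.62e-05). Against DMSO the values were −0.54 (SE 0.053, edgeR adjusted p = 4.71e-08) and −0.56 (SE 0.12, edgeR adjusted p = 0.000583). IFITM1 (chromosome 11, 314040 to 315272) was at 1.79, 2.85, 1.14 and 1.38 CPM in DMSO, 4.07, 2.67, 3.26 and 2.74 in MI-503 and 2.15, 0.952 and 0.372 in the combination. Its combination libraries spread widely, and the fall against MI-503 (−1.31, SE 0.43, edgeR adjusted p = 0.0268) depended on single libraries, at −2.35 with 4.12e-05 without combination replicate 1 and with adjusted p of 0.0696 without combination replicate 2, 0.0587 without MI-503 replicate 1 and 0.0507 without MI-503 replicate 3. After MI-503 IFITM1 gave 0.81 (edgeR adjusted p = 0.104), which passed without DMSO replicate 2 (0.0375) or combination replicate 1 (0.00489) or 4 (0.0152), and the combination against DMSO gave −0.50 (edgeR adjusted p = 0.372), or −1.50 with 0.00402 without combination replicate 1. Without combination replicate 1, IFITM2 and IFITM3 were called higher after MI-503 as well (0.13 and 0.28, with adjusted p of 0.0106 and 0.0127). The same held without combination replicate 2 (0.0305 and 0.0453) or 4 (0.0264 and 0.0338), and for IFITM3 without DMSO replicate 2 (0.0155). Of their 100-base exon windows, 1.91% in IFITM1 and 2.18% in IFITM3 recur in the other gene. BST2 (tetherin), which holds budding virions at the membrane, was higher after MI-503 (0.50, SE 0.059, edgeR adjusted p = 1.28e-06) and was not called between the combination and MI-503 (0.11, 95% interval −0.02 to 0.24).

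**Figure D2:**
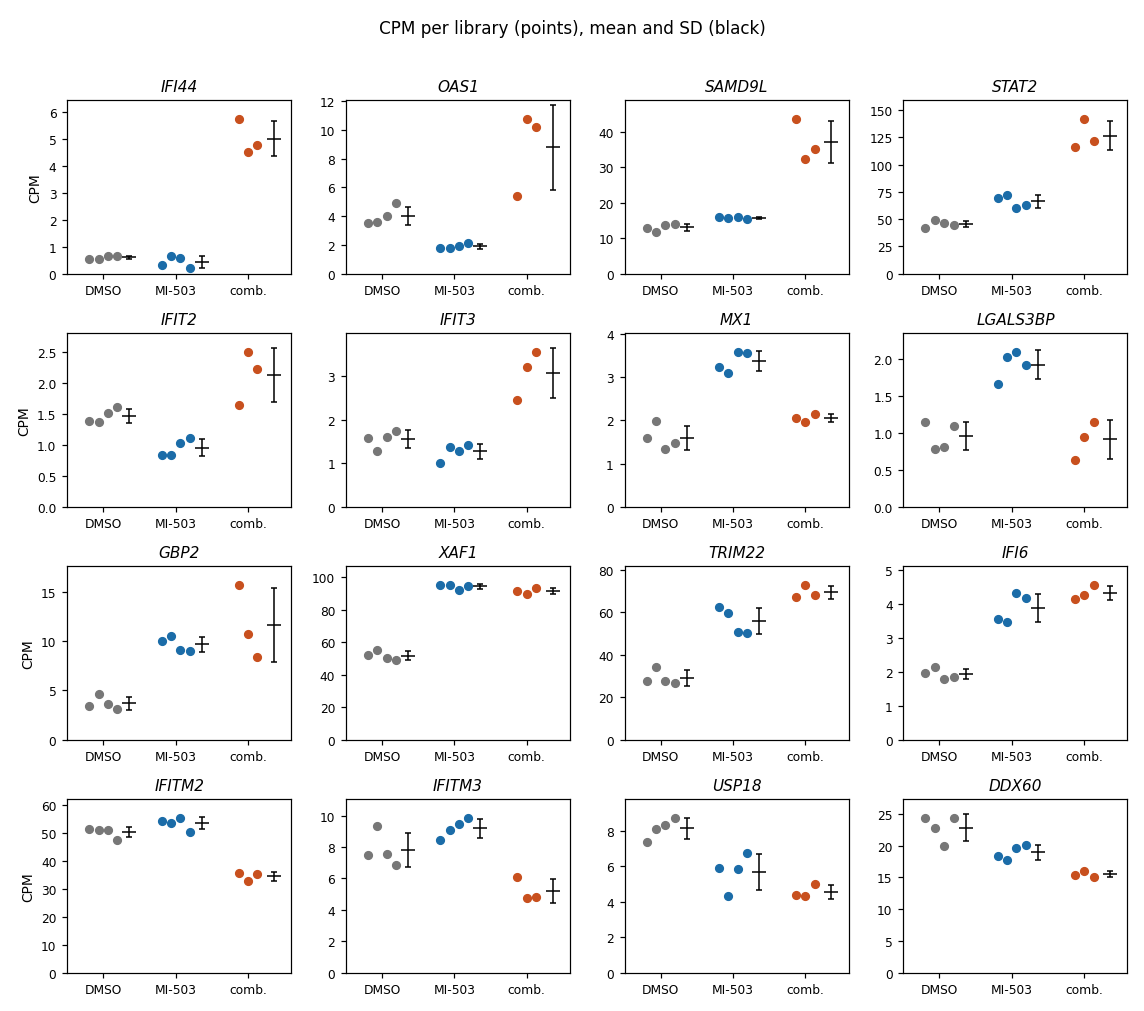
Level in CPM (y axis, from 0) of 16 ISGs in each DMSO (grey), MI-503 (blue) and combination (orange, comb.) library, with the mean and SD of each group in black at its right. IFI44, OAS1, SAMD9L and STAT2 are highest in every combination library, IFITM2 and IFITM3 lowest there, and MX1 and LGALS3BP peak in the MI-503 libraries.

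Transcription factors of the interferon response split. STAT2 (chromosome 12, 56341597 to 56360161, minus strand), the subunit particular to the ISRE-binding complex, was at 42.2, 49.0, 46.6 and 44.6 CPM in DMSO, 69.7, 72.3, 60.1 and 62.8 in MI-503 and 116, 142 and 122 in the combination. It rose in steps with no overlap between groups, by 0.54 after MI-503 (SE 0.072, edgeR adjusted p = 1.01e-05) and by a further 0.93 with PR-957 (SE 0.074, edgeR adjusted p = 4e-08). IRF1 (chromosome 5, 132481609 to 132490789, minus strand), a target of interferon gamma, was at 38.4, 36.4, 38.9 and 33.2 CPM in DMSO, 32.2, 33.9, 31.9 and 30.9 in MI-503 and 31.4, 29.3 and 28.8 in the combination. IRF1 was slightly lower after MI-503 (−0.19, SE 0.058, edgeR adjusted p = 0.0108; 0.0844 with upper-quartile scaling) and in the combination (−0.30 against DMSO, SE 0.063, edgeR adjusted p = 0.000366). Between the treatments it gave −0.11 and was not called (edgeR adjusted p = 0.156), or −0.18 with 0.0235 without combination replicate 1. IRF7 (chromosome 11, 612555 to 615999, minus strand), which amplifies type I interferon production, was at 3.34, 3.31, 2.61 and 3.65 CPM in DMSO, 1.94, 2.41, 2.43 and 1.88 in MI-503 and 3.07, 2.76 and 3.31 in the combination. It was lower after MI-503 (−0.56, SE 0.15, edgeR adjusted p = 0.0034) and higher in the combination than in MI-503 (0.49, SE 0.16, edgeR adjusted p = 0.0148; 0.0758 without combination replicate 4). Of the 100-base exon windows of IRF7, 94.1% recur on an alternative contig, so its counts may cover only part of the transcript. IRF9, the DNA-binding subunit of the complex, had no count, with a second annotated copy as given above.

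Sensors and editors of double-stranded RNA also differed from each other. IFIH1, the sensor also known as MDA5, rose after MI-503 (0.45, SE 0.096, edgeR adjusted p = 0.000597) and further in the combination (0.32 over MI-503, SE 0.096, edgeR adjusted p = 0.011; 0.20 with 0.0997 without combination replicate 1). DDX60, a helicase linked to such sensors (chromosome 4, 168216293 to 168325981, minus strand), was at 24.4, 22.8, 19.9 and 24.3 CPM in DMSO, 18.3, 17.7, 19.6 and 20.1 in MI-503 and 15.4, 16.0 and 15 in the combination. It was the only tested member called lower in each of the 3 comparisons, by −0.27 (SE 0.071, edgeR adjusted p = 0.00329) after MI-503, −0.56 (SE 0.078, edgeR adjusted p = 3.54e-06) in the combination against DMSO and −0.29 (SE 0.078, edgeR adjusted p = 0.00498) between the treatments. ADAR and EIF2AK2, the RNA editor and the kinase that halts translation on double-stranded RNA, were called in no comparison, with fitted values between −0.09 and 0.09. ADAR was called higher in the combination than in MI-503 without MI-503 replicate 4 (0.11, edgeR adjusted p = 0.0490) or with upper-quartile scaling (0.10, 0.0482). In ADAR 24.8% of exon bases are shared with CHRNB2 and were not counted.

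The ubiquitin-like modifier ISG15 was at 8, 7.76, 8.11 and 7.83 CPM in DMSO, 6.80, 7.55, 7.14 and 6.87 in MI-503 and 6.75, 6.67 and 7.62 in the combination, slightly below DMSO in both groups, yet was called in no comparison (−0.16, 95% interval −0.34 to 0.03, after MI-503). In the combination against DMSO ISG15 gave −0.18 (edgeR adjusted p = 0.104), or −0.24 with 0.0484 without combination replicate 4. USP18 (chromosome 22, 18149855 to 18177397), the protease that removes ISG15 and restrains the type I receptor, was at 7.35, 8.08, 8.34 and 8.73 CPM in DMSO, 5.87, 4.33, 5.82 and 6.75 in MI-503 and 4.36, 4.31 and 4.98 in the combination. It was lower than DMSO in both groups (−0.52, SE 0.12, edgeR adjusted p = 0.00123, and −0.83, SE 0.13, edgeR adjusted p = 1.9e-05), and between the groups the value was −0.31 (edgeR adjusted p = 0.0676; called without MI-503 replicate 2 or combination replicate 4, at 0.00792 and 0.0297). For USP18 52.7% of exon windows recur in other loci such as USP41, so these values are uncertain. HERC5, the ligase that attaches ISG15, was higher after MI-503 (0.36, SE 0.096, edgeR adjusted p = 0.00355) and in the combination (0.40 over DMSO, SE 0.10, edgeR adjusted p = 0.00197), and HERC6 was called in the combination against DMSO alone (0.45, edgeR adjusted p = 0.0204), which was lost without DMSO replicate 2 or 3 or combination replicate 4 (0.0672, 0.0562 and 0.0766). Without MI-503 replicate 2, HERC6 was called higher after MI-503 as well (0.39, edgeR adjusted p = 0.0429). TRIM25, the ligase that activates RIG-I, was called in no comparison. With upper-quartile scaling it was called higher in the combination than in DMSO (0.10, edgeR adjusted p = 0.0219).

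Of the ADP-ribosylation genes, PARP14 rose with PR-957 by 0.35 over MI-503 (SE 0.056, edgeR adjusted p = 5.42e-05; 0.23 without combination replicate 1), whereas PARP9 and DTX3L, which form a complex and share a promoter region, were called in no comparison. In PARP9 46.8% of exon bases are shared with DTX3L or another gene and were not counted. The viperin pair, RSAD2 and CMPK2, which produce an antiviral nucleotide, was slightly lower in the combination than in DMSO. RSAD2 gave −0.26 (edgeR adjusted p = 0.0445) and CMPK2 −0.35 (edgeR adjusted p = 0.0151), and without combination replicate 1 neither was called (−0.21 with 0.149 and −0.19 with 0.125). CMPK2 also lost its call without DMSO replicate 3 (0.0608). It was called lower after MI-503 without DMSO replicate 2 (−0.26, edgeR adjusted p = 0.0408). In the combination against MI-503, CMPK2 was called lower without combination replicate 4 (−0.35, 0.0230) and RSAD2 without MI-503 replicate 2 (−0.31, 0.0309). Against DMSO, RSAD2 also missed the threshold when replicate 1 (0.0884), 3 (0.0627) or 4 (0.0913) of DMSO, replicate 1 (0.0538) or 4 (0.0544) of MI-503, or replicate 2 (0.0615) or 4 (0.0648) of the combination was left out.

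SAMD9L and TRIM22 were, like STAT2 and IFIH1, called higher in each of the 3 comparisons. SAMD9L (chromosome 7, 93130056 to 93148385, minus strand), an antiviral growth repressor, was at 13, 11.8, 13.7 and 13.8 CPM in DMSO, 15.8, 15.8, 15.9 and 15.4 in MI-503 and 43.6, 32.4 and 35.2 in the combination. Most of its rise came with PR-957 (1.25 over MI-503, SE 0.085, edgeR adjusted p = 1.21e-09), and the value after MI-503 alone was 0.27 (edgeR adjusted p = 0.0149; 0.0525 without DMSO replicate 2). TRIM22 (chromosome 11, 5689790 to 5710863), a ubiquitin ligase that represses viral transcription, was at 27.5, 34.3, 27.7 and 26.6 CPM in DMSO, 62.3, 59.6, 50.9 and 50.2 in MI-503 and 67.3, 72.8 and 67.8 in the combination. For TRIM22 most of the rise came with MI-503 (0.94, SE 0.084, edgeR adjusted p = 1.95e-07), and the further 0.31 with PR-957 (edgeR adjusted p = 0.00668) was lost without combination replicate 2 (0.0652).

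IFI6 and XAF1 rose with MI-503 and were not called between the treatments. IFI6 (chromosome 1, 27666061 to 27672229, minus strand), a mitochondrial and endoplasmic reticulum protein that restrains cell death, was at 1.96, 2.16, 1.80 and 1.85 CPM in DMSO, 3.56, 3.49, 4.33 and 4.17 in MI-503 and 4.15, 4.26 and 4.57 in the combination. It gave 0.99 after MI-503 (SE 0.13, edgeR adjusted p = 4.88e-06) and 0.16 between the treatments (95% interval −0.11 to 0.42). XAF1, a proapoptotic protein, gave 0.87 after MI-503 (SE 0.044, edgeR adjusted p = 1.78e-11) and −0.04 between the treatments (95% interval −0.14 to 0.05). LGALS3BP (chromosome 17, 78971255 to 78979923, minus strand), a secreted glycoprotein that binds galectins, was at 1.15, 0.781, 0.806 and 1.09 CPM in DMSO, 1.67, 2.03, 2.10 and 1.92 in MI-503 and 0.637, 0.952 and 1.15 in the combination. Like MX1 it was higher after MI-503 (1.00, SE 0.21, edgeR adjusted p = 0.000498) and lower in the combination than in MI-503 (−1.13, SE 0.22, edgeR adjusted p = 0.000363), where it overlapped DMSO. SAMD9, the paralog of SAMD9L, gave −0.16 after MI-503 and 0.19 between the treatments, the second called at an adjusted p of 0.0371. That call was lost on leaving out replicate 1 (0.0973), 2 (0.0629) or 3 (0.0564) of MI-503 or replicate 1 (0.194), 2 (0.146) or 4 (0.0536) of the combination. SAMD9 was called lower after MI-503 without DMSO replicate 2 or 3 (−0.19 in both, with edgeR adjusted p of 0.0257 and 0.0293). IFI35 and SP110 were called in no comparison, yet their values depended on single libraries. Without combination replicate 1 IFI35 was higher in the combination than in MI-503 (0.27, edgeR adjusted p = 0.00749) and than in DMSO (0.43, edgeR adjusted p = 4.52e-05) and was higher after MI-503 (0.17, edgeR adjusted p = 0.0447), whereas without combination replicate 4 the first value was −0.16 and not called. SP110 was lower in the combination than in MI-503 (−0.30, edgeR adjusted p = 0.00185) and than in DMSO (−0.19, edgeR adjusted p = 0.0332) without combination replicate 1.

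MX1, LGALS3BP, IFIT2, OAS1 and IRF7 were called in opposite directions in MI-503 against DMSO and in the combination against MI-503. The first pair was high in MI-503 and the other 3 were low there. Both comparisons use the MI-503 libraries with opposite sign, so that chance deviations of these libraries push the values apart.

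Neighboring members were alike in some clusters and not in others. Of the 46 members, 24 lay within 100 kb of another, in 10 clusters. In the OAS cluster OAS1 gave 2.18 (95% interval 1.72 to 2.64) with PR-957, and the adjoining OAS3 and OAS2 0.29 and 0.08. In the IFIT cluster IFIT1, which lies between IFIT3 and IFIT5, gave −0.20 beside their 1.24 and 1.02. SAMD9L gave 1.25 and SAMD9 0.19, and IFI44 was at 90 fragments or more in every combination library where the adjoining IFI44L had 3 or fewer. In 4 of the 8 clusters with more than 1 tested member (the IFITM cluster and the pairs of MX1 with MX2, HERC5 with HERC6 and RSAD2 with CMPK2) the fitted values of neighbors had the same sign in each of the 3 comparisons, called or not, and in the other 4 they did not. No test was made between genes.

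**Figure D3:**
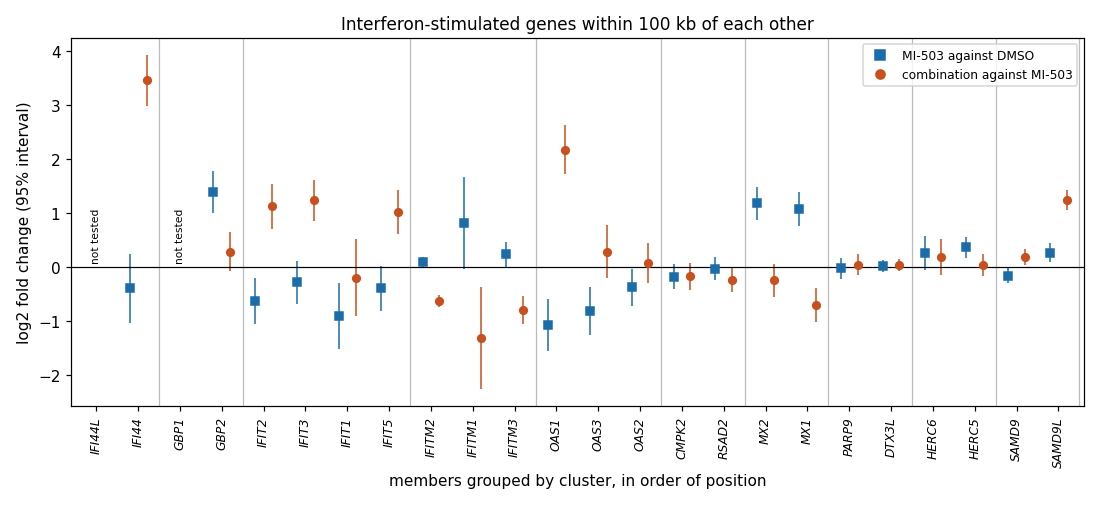
Fitted log2 fold change with 95% interval (y axis) of the 22 tested ISGs among the 24 that lie within 100 kb of another member (IFI44L and GBP1 were not tested), grouped by cluster and in order of position (x axis); blue squares are MI-503 against DMSO and orange circles the combination against MI-503. OAS1 (2.18) and SAMD9L (1.25) lie well above their neighbors in the combination against MI-503.

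Upstream of the ISGs, the receptor and kinase genes were mostly higher after treatment. A list of 61 further pathway genes in the table was used, of which 33 were tested. After MI-503, 19 of them were called higher and 5 lower (21.9% and 29.4% of all tested genes). In the combination 20 were higher and 6 lower than in DMSO (31.6% and 32.8% of all genes), and 14 were higher and 7 lower than in MI-503 (23.5% and 23.7%). Both higher counts of the combination include AIM2, which passed the filter only through the combination libraries. All 5 tested receptor chains were higher than in DMSO in both groups, and of the 5 kinases 4 were higher and 1 lower after MI-503 and all 5 higher in the combination. IFNGR1, the ligand-binding chain of the interferon gamma receptor, was at 52.5, 54.0, 51.6 and 56.1 CPM in DMSO, 67.7, 65.1, 70.4 and 66.1 in MI-503 and 87.0, 85.8 and 96.9 in the combination, rising in steps with no overlap (0.33, SE 0.049, edgeR adjusted p = 1.43e-05, and a further 0.42, SE 0.051, edgeR adjusted p = 2e-06). TBK1, the kinase that activates IRF3, was at 39.9, 35.5, 36.6 and 39.8 CPM in DMSO, 31.5, 30.4, 31.0 and 32.3 in MI-503 and 68.0, 62.1 and 69.6 in the combination. It was lower after MI-503 (−0.28, SE 0.055, edgeR adjusted p = 0.000286) and higher with PR-957 (1.09 over MI-503, SE 0.056, edgeR adjusted p = 2.15e-11).

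Sensors and adaptors moved in both directions. IFI16, a sensor of DNA, was at 22.2, 20.7, 22.1 and 24.9 CPM in DMSO, 12.0, 11.6, 12.5 and 11.5 in MI-503 and 9.08, 6.62 and 6.91 in the combination, falling at each step (−0.92, SE 0.088, edgeR adjusted p = 8.41e-08, and −0.63, SE 0.10, edgeR adjusted p = 5.92e-05). STING1, the adaptor of the DNA-sensing pathway, was at 302, 292, 313 and 309 CPM in DMSO, 331, 335, 363 and 342 in MI-503 and 259, 249 and 255 in the combination. It was slightly higher after MI-503 (0.17, SE 0.040, edgeR adjusted p = 0.00135) and lower with PR-957 (−0.43, SE 0.044, edgeR adjusted p = 2.64e-07). IRF5, a factor of macrophage activation, and UBE2L6, the conjugating enzyme for ISG15, rose with MI-503 by 0.72 (SE 0.071, edgeR adjusted p = 1.41e-07) and 0.98 (SE 0.086, edgeR adjusted p = 2.49e-08), and were not called between the treatments (0.06, 95% interval −0.09 to 0.21, and 0.13, 95% interval −0.05 to 0.30).

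**Figure D4:**
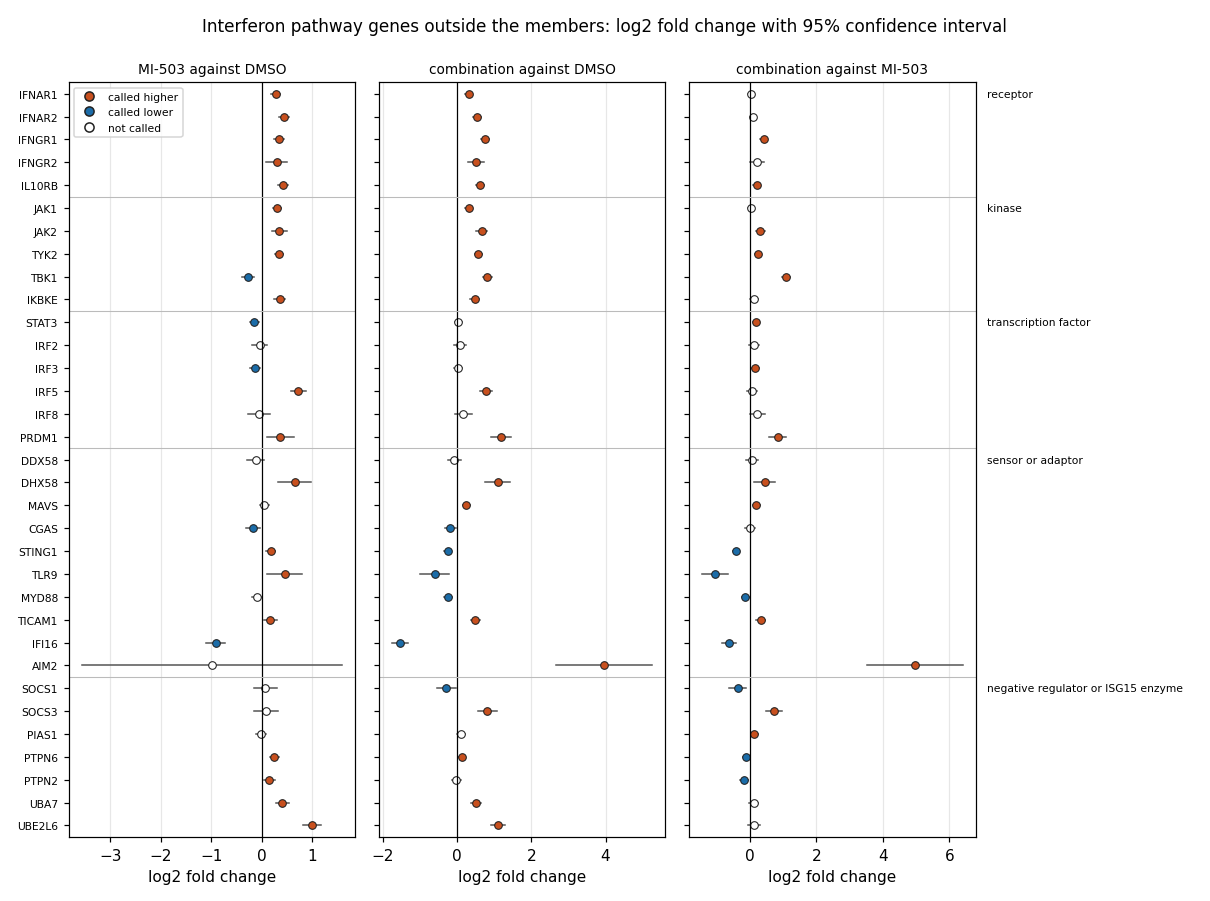
Fitted log2 fold change (x axis) of the 33 tested pathway genes that are not members (y axis, by role) in the 3 comparisons, with 95% confidence intervals; colors as in the plot of ISG fold changes. The 5 receptor chains lie to the right of 0 in both comparisons with DMSO, and TBK1 is lower after MI-503 but higher in the combination.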

How the data were processed

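RNA of 11 MOLM-13 libraries was measured after 72 h of treatment. The deposited count files hold raw counts per gene, which the authors made with Trimmomatic 0.39, STAR 2.7.10a and featureCounts 2.0.1 (per the labels and the file headers) on RefSeq exons of hg38, ignoring strand. Multi-mapping fragments and those overlapping several genes were not counted, which can remove counts from duplicated or overlapping genes. Alignments had passed a filter whose rule was not found in the labels, the headers or the study's methods. Deposited DESeq2 tables of the authors (log2 fold changes with errors, p-values and adjusted p-values) were not used. The joined table and the single files differed in 0 cells.

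Counts were analyzed with edgeR 4.0.16 in R 4.3.3, and summarized in Python 3.11.15. Genes were filtered with filterByExpr (at least 10 counts, 15 in total, large n 10), which kept 14683 of 38557. A single model with group means held the 11 libraries, with TMM factors of 0.956 to 1.06 and a common dispersion of 0.00378. Contrasts were tested two-sided with the robust quasi-likelihood test, adjusted by Benjamini-Hochberg over all tested genes, and the code was tested on simulated data. CPM are TMM-scaled, and CPM per kb use exon bases. Alternatives used DESeq2 1.42.0 and limma 3.58.1, other scaling and filters, a replicate block, fits of the 2 groups compared and each library left out.

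The members, the gene lists and the markers were chosen with earlier results of these data known, so no test over a list was made. Values in each library are given for called members (mean at least 1 CPM) that were among the 5 highest or 5 lowest fold changes of a comparison, members called in opposite directions, and the transcription factors. For pathway genes the 3 with the smallest adjusted p per comparison are named. A gene of the pathway list is not reported here and was left out of the list's counts. IFIT1 and ISG15 were added after their values were seen. Coordinates are from the annotation of the counts. Promoter windows are from RefSeq (GRCh38.p14).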

Additional observations from a re-analysis of the deposited data

Results flagged for a closer look

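Within groups of 4, a library was marked by Dixon's ratio, its gap to the nearest other divided by the range of the group. The mark was set where the ratio exceeded Dixon's 95% critical value for 4 samples, which chance does in about 1 in 20 groups. This held for 4 of the 80 groups of tested members. TRIM22 was at 34.3 CPM in DMSO replicate 2 against 26.6 to 27.7 in the others (ratio 0.854), the largest of these gaps in CPM. IFITM2 was at 47.5 CPM in DMSO replicate 4 against 50.9 to 51.4 (0.855). XAF1 was at 92.1 CPM in MI-503 replicate 3 against 94.9 to 95.4 (0.852), and DTX3L at 41 CPM in DMSO replicate 4 against 42.2 to 42.3 (0.953, the largest ratio).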

How the results depend on the processing

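No called member changed sign under the alternatives run, and the counts of called members stayed within 1.5 times, but values that were not called did change sign. In the combination against MI-503 these included GBP2 (0.29 to −0.06 without combination replicate 1), and OAS3 (0.29 to −0.04) and IFI35 (0.09 to −0.16) without combination replicate 4. Of the values of single named genes, 1432 kept their side of the threshold, 28 gained a call and 22 lost one. The median log2 fold change of the members in MI-503 against DMSO (−0.01) moved to 0.0565 with upper-quartile factors, 0.0645 with the stricter filter (1 CPM in 3 libraries) and 0.0395 with only the 2 groups in the fit. The median over all genes (−0.0284) moved to 0.0337, 0.0061 and 0.0106 in these settings. In the combination against DMSO the median of the members moved from 0.05 to 0.1175, 0.2324 and 0.0970 with upper-quartile factors, no filter and the stricter filter. With the last 2 settings more or fewer genes were tested. For all genes the median there moved from 0.0128 to 0.0817, 0.1030 and 0.0196. Leaving out 1 library gave 12 to 16 members higher and 8 to 10 lower in MI-503 against DMSO, with medians of −0.0303 to 0.0369. Over all genes these fits called 19.7% to 28.1% higher and 25% to 28.8% lower. Against DMSO the combination gave 15 to 18 and 6 to 9 members (0.0467 to 0.1125), beside 29.1% to 31.8% and 30.4% to 32.7% of all genes. Against MI-503 it gave 10 to 13 and 5 to 8 (−0.0033 to 0.081), beside 17.3% to 23.7% and 21.7% to 27.5% of all genes. Same-numbered libraries correlated at −0.147 to 0.184 in their deviations, so the numbers were not taken as pairs. With the replicate block 12 and 8, 17 and 8, and 11 and 6 members were called higher and lower in the 3 comparisons, and RSAD2 in the combination against DMSO (0.0779) and SAMD9 against MI-503 (0.0752) lost their calls. Over all genes the block gave 22.4% and 29.4%, 30.8% and 32.4%, and 22.9% and 23.5%.

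RSAD2 in the combination against DMSO also lost its call with DESeq2 (0.0853), without a filter (0.148), with the stricter filter (0.0716), with RLE (0.0521) or upper-quartile factors (0.127) and with only the 2 groups (0.0691), and CMPK2 there with only the 2 groups (0.0502). SAMD9 against MI-503 lost it with RLE factors (0.0539) and DESeq2 (0.0669). IFIT2 in the combination against DMSO was at an adjusted p of 0.0560 with DESeq2. OAS3 there was at 0.0702 with upper-quartile factors, 0.0592 with the stricter filter and 0.0559 with only the 2 groups. In MI-503 against DMSO, IFITM2 and IFITM3 were called higher with upper-quartile factors (0.0125 and 0.0335), the stricter filter (0.0171 and 0.0358) and only the 2 groups (0.00663 and 0.0113). IFITM2 was also called with RLE factors (0.0449), and IFITM1 with limma-voom (0.0390) and only the 2 groups (0.00245). Precision is limited by 3 or 4 libraries per group and, for IFIT1, IFITM1 and IFI44, by few fragments.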

Other observations

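These pathway genes were chosen after their values were seen. AIM2, a sensor of cytosolic DNA, had 0 to 2 fragments in each DMSO and MI-503 library but 34, 18 and 14 in combination replicates 1, 2 and 4. It passed the filter only through the combination libraries, where it was high. Its calls over DMSO and over MI-503 are both among the higher calls of the pathway list above. Because these high libraries let it pass the filter, those calls are no support for a rise of the list. TLR9, a DNA receptor of endosomes, was higher after MI-503 (log2 fold change 0.45, SE 0.16, edgeR adjusted p = 0.028) and lower in the combination than in MI-503 (−1.05, SE 0.18, edgeR adjusted p = 0.000175). DHX58, a regulator of RNA sensing, rose at each step, by 0.65 (SE 0.16, edgeR adjusted p = 0.00188) and 0.45 (SE 0.15, edgeR adjusted p = 0.0187). SOCS3, an inhibitor of cytokine receptors, was higher with PR-957 by 0.74 (SE 0.12, edgeR adjusted p = 4.01e-05) and SOCS1, its relative, lower by −0.36 (SE 0.12, edgeR adjusted p = 0.0182).

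Among the members too low to be tested, OASL had 12, 4 and 19 fragments in combination replicates 1, 2 and 4 against 3 to 10 in the other libraries, and EPSTI1 had 2, 3 and 4 against 0 to 2. Library depth differed, and in CPM both genes overlapped DMSO. OASL was at 0.201 to 0.706 CPM in the combination (median 0.283), 0.135 to 0.276 in DMSO and 0.123 to 0.290 in MI-503. EPSTI1 was at 0.0472 to 0.150, 0.0337 to 0.0918 and 0 to 0.0409 CPM.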
